A study of Mus musculus with 8 samples.

Results

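RIKEN clone transcripts are the transcripts that the array still names by a clone of the RIKEN full-length mouse cDNA collection, with a symbol that ends in Rik. All probes that were no controls and carried such a name were taken, and 132 on chromosomes X and Y were left out. This gave 4075 of the 56605 probes of the array, for 3110 of its 37074 gene names. RNA came from tissue holding the cerebral cortex and striatum of male mice of 2 inbred strains. These were C57BL/6J (B6, 4 mice, 4 months old) and BTBRTF/ArtRbrc (BTBR/R, 4 mice). BTBR/R replicate 1 was 6 months old and the other BTBR/R mice were 4 months old. The labels give no transgene or treatment, each mouse had an array of its own, and BTBR/R is the BTBR line bred at the RIKEN BioResource Research Center. The question was which transcripts differ between the strains in this tissue.

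The RIKEN collection was made by copying messenger-like RNA of many mouse tissues into full-length cDNA and sequencing the clones. Many clones turned out to be long non-coding RNAs (lncRNAs), transcripts that are capped and often spliced and polyadenylated but hold no long reading frame, and others were the first copies of protein-coding genes that were named later. The leading characters of a symbol name the library of the clone, so most symbols record the tissue from which the clone was made. lncRNAs are known for tissue-restricted and low expression, and brain and testis are the tissues known to hold most of them.

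Values are on the log2 scale, background-subtracted and set to 0 at each array's 75th percentile (the scaled signal), and changes are BTBR/R minus B6. A probe was called when its limma p, adjusted by Benjamini-Hochberg over all 56605 probes, lay under 0.05 and the strain means differed 2-fold or more (1 on the log2 scale). It was detected on an array when the scanner software marked it well above background. Sequence differences between the strains under the probes were not looked up. A change of a single probe is thus a change of its signal, which such a difference could also alter.

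The sequences below are probes for members whose change or detection the results turn on, read 5′ to 3′ as the array annotation gives them, with mm9 positions from the array annotation. Capitals mark the hexamers AATAAA and ATTAAA, the letters of the polyadenylation signal. The first set fell in BTBR/R mice.
4930520O04Rik, chr9:70398321-70398380, plus strand: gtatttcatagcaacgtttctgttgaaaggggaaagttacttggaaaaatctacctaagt
2610507I01Rik, chr11:59011304-59011363, minus strand: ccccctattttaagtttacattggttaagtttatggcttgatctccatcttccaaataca
4933409K07Rik, chr4:42472710-42472769, plus strand: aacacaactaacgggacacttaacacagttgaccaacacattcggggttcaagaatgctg
9330151L19Rik, chr12:70300722-70300781, plus strand: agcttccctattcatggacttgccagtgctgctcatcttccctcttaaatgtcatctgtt
C030034I22Rik, chr17:69768412-69768471, plus strand: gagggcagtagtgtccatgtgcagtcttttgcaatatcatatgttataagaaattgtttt
A330048O09Rik, chr13:48367793-48367852, minus strand: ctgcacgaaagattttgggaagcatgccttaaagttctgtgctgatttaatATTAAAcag
C030037D09Rik, chr11:88589696-88589755, plus strand: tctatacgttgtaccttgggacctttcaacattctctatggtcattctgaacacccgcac
4833422C13Rik, chr13:91847627-91847686, minus strand: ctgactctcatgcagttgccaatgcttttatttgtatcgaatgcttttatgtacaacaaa
The second set rose in BTBR/R mice.
A930015D03Rik, chr17:36175058-36175117, plus strand: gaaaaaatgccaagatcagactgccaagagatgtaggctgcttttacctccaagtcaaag
1700097N02Rik, chr17:30759430-30759489, minus strand: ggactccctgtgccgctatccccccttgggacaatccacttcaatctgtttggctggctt
1700016P03Rik, chr11:74987513-74987572, plus strand: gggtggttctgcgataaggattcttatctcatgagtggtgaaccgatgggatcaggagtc
A730021G18Rik, chr16:50372739-50372798, minus strand: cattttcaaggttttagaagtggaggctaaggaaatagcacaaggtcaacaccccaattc
5033417F24Rik, chr1:94805654-94805713, minus strand: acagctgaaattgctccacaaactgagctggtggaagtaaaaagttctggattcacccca
4931440P22Rik, chr3:65331506-65331565, minus strand: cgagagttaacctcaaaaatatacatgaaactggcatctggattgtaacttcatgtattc
E130116L18Rik, chr5:24727732-24727791, minus strand: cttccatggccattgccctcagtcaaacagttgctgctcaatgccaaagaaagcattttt
A530053M12Rik, chr1:108296755-108296814, minus strand: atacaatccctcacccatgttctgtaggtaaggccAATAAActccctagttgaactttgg
The last set holds pairs of probes that carry the same symbol and differed in their change.
4922502B01Rik, chr8:111774833-111774892, minus strand: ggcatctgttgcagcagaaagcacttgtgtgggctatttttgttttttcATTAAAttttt
4922502B01Rik, chr8:111768866-111768925, minus strand: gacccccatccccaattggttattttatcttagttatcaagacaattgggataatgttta
4930570G19Rik, chr3:156222794-156222853, minus strand: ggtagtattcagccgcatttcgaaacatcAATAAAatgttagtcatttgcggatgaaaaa
4930570G19Rik, chr3:156211609-156211668, minus strand: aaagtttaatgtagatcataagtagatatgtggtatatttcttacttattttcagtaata
2810002D19Rik, chr2:94251692-94251751, plus strand: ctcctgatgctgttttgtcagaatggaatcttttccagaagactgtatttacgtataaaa
2810002D19Rik, chr2:94255873-94255932, minus strand: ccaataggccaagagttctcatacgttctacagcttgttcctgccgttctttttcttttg

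Over the whole collection, 773 of 4075 RIKEN probes (19.0%) held AATAAA or ATTAAA on the printed strand, against 13.4% of all probes of the array, which have the same usual length of 60 bases. The reverse complement of either hexamer stood in 6.92% of the RIKEN probes and in 6.36% of all probes. By kind of RIKEN probe it stood in 3.90% (protein-coding RefSeq), 7.20% (non-coding RefSeq) and 8.27% (clones and expressed sequence tags). On the printed strand the share rose in the same order. It was 13.7% for protein-coding RefSeq transcripts, 19.5% for non-coding RefSeq transcripts and 21.7% for clones and expressed sequence tags. The share was 19.2% among RIKEN probes detected on all 8 arrays, 18.1% among those detected on none and 18.2% (8 of 44) among those detected on all 8 and called. Within the kinds detected on all 8 arrays it was 23.4% for non-coding RefSeq transcripts, 19.9% for clones and expressed sequence tags and 15.0% for protein-coding RefSeq transcripts.

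All arrays shared 1 slide and 1 scan, and B6 samples lay in slide column 1 and BTBR/R samples in column 2, so strain and column cannot be told apart. The lowest detected signal was 14.5 to 17.8 on B6 arrays and 36.1 to 47.1 on BTBR/R arrays, so a dim transcript was detected more readily in B6. Markers of cortical excitatory neurons (Slc17a7, Tbr1, Neurod6) and of striatal projection neurons (Drd1, Drd2, Ppp1r1b, Adora2a, Rgs9) were detected on all 8 arrays and none was called. The same held for the lists of astrocytes (3 genes), oligodendrocytes (3), microglia (3), endothelial cells (2) and choroid plexus (4), although the summed scaled signal did not overlap between the strains for astrocytes (4.45 to 4.66 in B6 and 4.21 to 4.41 in BTBR/R mice) and endothelial cells (3.81 to 3.92 and 3.41 to 3.71). Of 3 ependymal genes 1 was called lower, of 3 red cell genes 2 were called lower, and the summed red cell signal was 6.11 to 7.77 in B6 and 5.53 to 5.84 in BTBR/R mice. Both cerebellar markers were detected on no array. The hypothalamic markers varied widely between mice of both strains, with a summed signal of -2.72 to 2.72 in B6 and -2.86 to 2.12 in BTBR/R mice, Hcrt being detected on all 8 arrays and Pmch in 3 B6 mice and 1 BTBR/R mouse. Of 4 germ cell markers of the testis none was detected on all 8 arrays, and their summed scaled signal was -2.77 to -1.80 in B6 and -2.21 to -1.98 in BTBR/R mice. In whole tissue, fewer cells of a type and less RNA per cell cannot be told apart.

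RIKEN transcripts were detected less often than the other features of the array. Between 47.6% and 50.8% of the RIKEN probes were detected on B6 arrays, against 65.8% to 68.0% of the other probes. On BTBR/R arrays the shares were 35.4% to 39.6% against 54.9% to 58.6%. Of the 4075 RIKEN probes 1288 (31.6%) were detected on all 8 arrays and 1619 (39.7%) on none, whereas 50.4% and 26.3% of all probes fell in these classes. A further 295 were detected in all B6 mice but in no BTBR/R mouse, 265 on every B6 array and 1 to 3 BTBR/R arrays, 304 on 1 to 3 B6 arrays alone, 242 on 1 to 3 BTBR/R arrays alone, 58 on some arrays of both strains and 4 on every BTBR/R array but not every B6 array. The guanine and cytosine content was 41.7% in the median RIKEN probe detected on all 8 arrays and 40.0% in the median probe detected on none.

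Clones from testis libraries were detected less often than those from other libraries. Testis libraries gave 1688 of the RIKEN probes (41.4%). Of these 263 (15.6%) were detected on all 8 arrays while 914 (54.1%) were detected on none. Adult testis gave 1657 of them, with 15.1% on all 8 arrays. The few probes from embryonic testis reached 37.5% of 16 (13 days) and 40% of 15 (15 days). Libraries of the nervous system gave 583 probes, of which 45.3% were detected on all 8 arrays and 24.5% on none. Probes from libraries of embryo or neonate head (41.5% of 205), whole embryo (51.1% of 284), embryonic stem cells (48.4% of 62) and other tissues (40.9% of 1033) had similar shares on all 8 arrays. Those from thymus, spleen and blood cells reached 36.6% of 202. The share was also lower for testis clones than for nervous system clones within 3 of 4 kinds of transcript. Of testis clones annotated as protein-coding RefSeq transcripts 31.1% were detected on all 8 arrays, against 83.9% for those of the nervous system, and of clones annotated as non-coding RefSeq transcripts 10.4% and 39.7% were. For clones and expressed sequence tags the shares were 13.0% and 42.8%. The few Ensembl transcripts had the reverse order, with 22.9% of 48 testis probes and 13.3% of 15 nervous system probes.

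**Figure D1:**
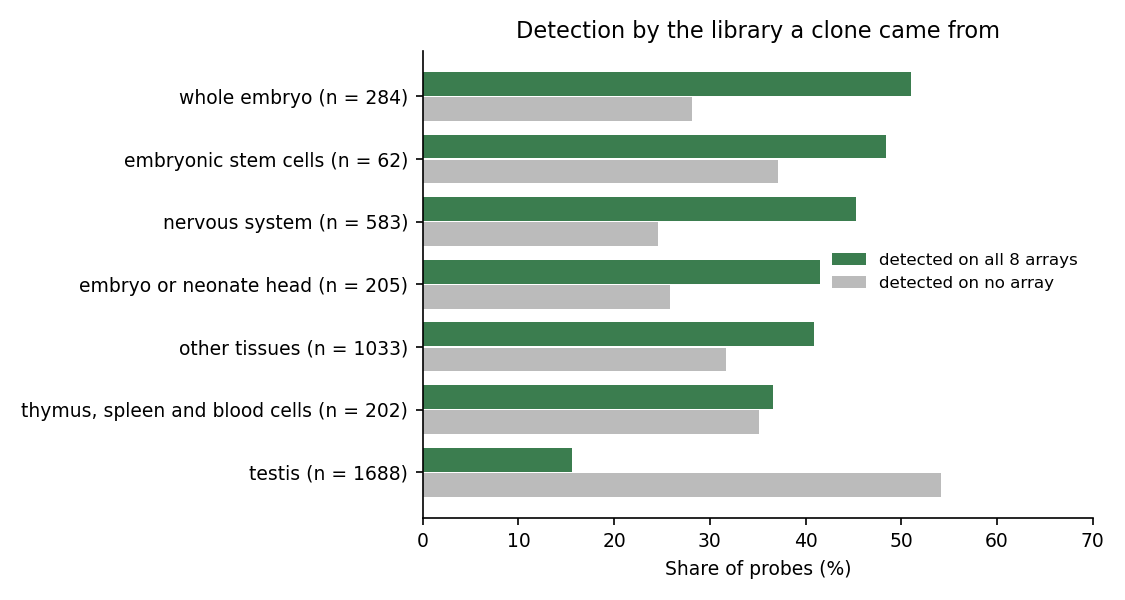
Share of RIKEN probes (%, horizontal axis) detected on all 8 arrays (green bars) and on no array (grey bars) by the library group of the clone, with the number of probes beside each name. Testis clones stand apart, with 15.6% on all 8 arrays and 54.1% on none.

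None of the 5 brightest members was called. 2610028H24Rik, annotated as protein-coding, had scaled signals of 8.68, 8.73, 8.77 and 8.69 in B6 mice and 8.50, 8.71, 8.64 and 8.60 in BTBR/R mice. 2900097C17Rik, now named Norad, an abundant lncRNA that binds Pumilio proteins, averaged 7.65 ± 0.04 in B6 and 7.71 ± 0.07 in BTBR/R mice (SD, n = 4 each, here and below). The 4 probes of Norad changed by 0.06, 0.09, 0.15 and 0.05 on the log2 scale. 3000002C10Rik, a transcribed pseudogene, averaged 6.65 ± 0.04 and 6.63 ± 0.03. The probes of A530030E21Rik (7.31 ± 0.05 and 7.23 ± 0.10) and A430078G23Rik, now Arhgef18 (6.97 ± 0.04 and 7.22 ± 0.13), each shared a run of 38 identical bases with a probe for another gene, Proser3 and Wdr31. The part of the shared run in these signals was not tested. For A530030E21Rik the capitals below mark that run and not the hexamers, and most of it is a dinucleotide repeat.
A530030E21Rik, chr16:19244060-19244119, plus strand: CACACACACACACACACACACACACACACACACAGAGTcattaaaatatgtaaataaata

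Most RIKEN transcripts detected on all 8 arrays differed little between the strains. The median change over these 1288 probes was -0.02 (0.00 over all 28547 probes detected on all 8 arrays), 595 were above 0 and 693 below it, and 1124 (87.3%) changed by less than 0.5 on the log2 scale, against 91.5% of all probes detected on all 8 arrays. The median standard deviation between mice of a strain was 0.09 in B6 and 0.10 in BTBR/R mice. At the adjusted p alone 435 of the 1288 differed (33.8%, against 26.9% of all probes detected on all 8 arrays), 176 higher and 259 lower in BTBR/R mice. The 4 mice of one strain all lay above the 4 of the other on 486 of the 1288 (37.7%), against 32.6% of all probes detected on all 8 arrays.

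With the 2-fold limit, 44 of the 1288 were called, 28 lower in BTBR/R mice (2.17%) and 16 higher (1.24%). The background over all probes detected on all 8 arrays was 1.16% lower, 1.04% higher and 2.2% in either direction; for the higher calls the RIKEN share was near that background and for the lower ones it was above it, a difference that was not tested. The median change of the called probes was -1.29 for the lower and 1.28 for the higher ones, against -1.31 and 1.35 over all called probes. By annotation, non-coding transcripts had the highest share of calls. Of 351 RIKEN probes for non-coding RefSeq transcripts 21 (5.98%) were called, 15 lower and 6 higher. Of 427 for protein-coding RefSeq transcripts 9 (2.11%) were called, of 477 for clones or expressed sequence tags 13 (2.73%), and of 33 for Ensembl transcripts 1. Among features that were no RIKEN transcripts, 32 of 765 non-coding RefSeq probes (4.18%) and 1.79% of protein-coding ones were called, so the non-coding share was above the coding one there too. By library, 13 of 263 testis clones (4.94%), 8 of 264 nervous system clones (3.03%), 7 of 85 head clones (8.24%), 4 of 145 whole embryo clones (2.76%), 10 of 422 clones of other tissues (2.37%), 2 of 74 clones of thymus, spleen and blood cells (2.70%) and 0 of 30 embryonic stem cell clones were called. The head clones include both probes of 4833420G17Rik.

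**Figure D2:**
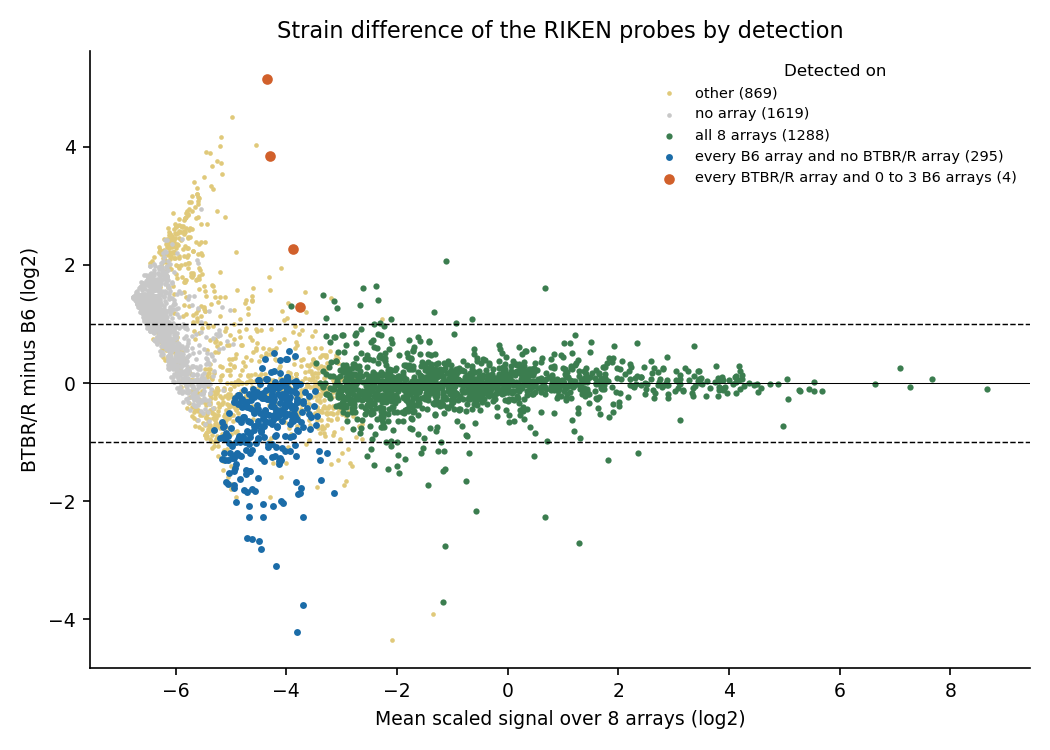
Change between the strains (BTBR/R minus B6, log2, vertical axis) against the mean scaled signal over 8 arrays (log2, horizontal axis) for the RIKEN probes, coloured by the arrays that detected them, with the 2-fold limits dashed. The 1288 probes detected everywhere (green) scatter about 0 with 28 called below and 16 above, while the 1619 probes detected nowhere (grey) lie at the dim end, mostly above 0.

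The largest fall among the transcripts detected on all arrays was on a probe named 4930520O04Rik. Its scaled signal was 0.52, 0.64, 0.78 and 0.79 in B6 mice and -3.00, -3.01, -3.11 and -3.00 in BTBR/R mice, so the strains lay far apart without overlap, and the change was -3.71 (SE 0.07, adjusted p = 2.73e-07), or 13.1-fold. The position of this probe differs from that of the gene. It lies at chr9:70398321-70398380, 43.9 Mb from the other probes of the symbol, at chr9:114278221-114278280 and chr9:114285915-114285974, of which the first was detected on no array and the second in B6 mice alone (-4.62 ± 0.22 and -5.58 ± 0.14). It was designed on a GenBank clone, not on the RefSeq transcript of the gene. Among RIKEN symbols with several probes, 5 had probes over 1 Mb apart or on different chromosomes.

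The other large falls were in lncRNAs, protein-coding transcripts and a transcribed pseudogene. 2610507I01Rik measured 0.23, 0.19, 0.23 and 0.36 in B6 and -2.53, -2.58, -2.37 and -2.56 in BTBR/R mice (change -2.76, SE 0.07, adjusted p = 7.66e-07). 4933409K07Rik, a transcribed pseudogene first cloned from testis, measured 2.60, 2.67, 2.70 and 2.62 in B6 and -0.15, 0.12, -0.15 and -0.08 in BTBR/R mice, a 6.55-fold difference (change -2.71, SE 0.07, adjusted p = 1.15e-06). It was the brightest of the transcripts that fell this far, and it stayed well within the measured range in both strains. 9330151L19Rik, a diencephalon clone, measured 1.84, 1.84, 1.79 and 1.76 in B6 and -0.63, -0.44, -0.39 and -0.37 in BTBR/R mice (change -2.26, SE 0.07, 4.81-fold). C030034I22Rik, first cloned from the corpus striatum, averaged 0.08 ± 0.07 in B6 and -1.57 ± 0.09 in BTBR/R mice, 3.14-fold lower. For each of these the strains lay much farther apart than the mice of a strain.

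A930012L18Rik and A330048O09Rik fell with more spread among the BTBR/R mice. A330048O09Rik measured -0.49, -0.42, -0.27 and -0.52 in B6 and -2.29, -1.47, -1.90 and -2.01 in BTBR/R mice (change -1.49, SE 0.17, adjusted p = 0.000249). A930012L18Rik averaged -1.19 ± 0.14 and -2.71 ± 0.34 (change -1.52, SE 0.17), and with the normexp background correction its change was -0.89, short of 2-fold.

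Of the protein-coding members, 1700025G04Rik, 4833420G17Rik and 1700028P14Rik were among the largest falls. 4833420G17Rik had 2 probes, and both were called. The first averaged -0.58 ± 0.04 in B6 and -2.31 ± 0.09 in BTBR/R mice (change -1.73, SE 0.06), and the second changed by -1.31 (SE 0.05). 1700028P14Rik averaged -1.43 ± 0.06 and -2.88 ± 0.17 (change -1.45, SE 0.09, adjusted p = 2.76e-05), and with the normexp correction the change was -0.89.

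Among transcripts detected on all 8 arrays the largest rise was in A930015D03Rik, a lncRNA first cloned from retina that lies among the class I genes of the major histocompatibility complex on chromosome 17. It measured -2.26, -2.07, -2.28 and -2.002 in B6 and -0.11, -0.02, -0.11 and -0.13 in BTBR/R mice, a 4.17-fold rise (change 2.06, SE 0.08, adjusted p = 5.00e-06). The nearest called probe of another gene, for the class I gene H2-T22, lay 0.553 kb away and moved the other way, by -1.17. 1700097N02Rik, also on chromosome 17, measured -3.24, -3.16, -3.30 and -3.11 in B6 and -1.50, -1.65, -1.91 and -1.20 in BTBR/R mice (change 1.64, SE 0.14, adjusted p = 5.59e-05). Its nearest called neighbour was another RIKEN transcript, 0710001D07Rik, which lay 45.4 kb away and fell, by 1.06 on the log2 scale.

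5033417F24Rik and 4931440P22Rik rose with little spread between mice. 5033417F24Rik averaged -3.05 ± 0.04 in B6 and -1.64 ± 0.07 in BTBR/R mice (change 1.41, SE 0.05, adjusted p = 4.88e-06), and 4931440P22Rik averaged -1.93 ± 0.04 and -0.72 ± 0.08 (change 1.21, SE 0.05). A pair of testis clones that now have names, 1700007G11Rik (Cfap299, a protein of cilia and flagella) and 1700015F17Rik (Pttg1ip2), changed by 1.26 (SE 0.14) and 1.30 (SE 0.13). A730021G18Rik and B430105A11Rik changed by 1.49 (SE 0.16) and 1.38 (SE 0.14). These last 4 were dim in B6, with means between -4.57 and -3.71. All of these 6 rises fell short of 2-fold with the normexp correction, at 0.58 to 0.91, and with all signals raised to the highest detection limit 1700015F17Rik changed by 0.28 (adjusted p = 0.196) and A730021G18Rik by 0.96.

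**Figure D3:**
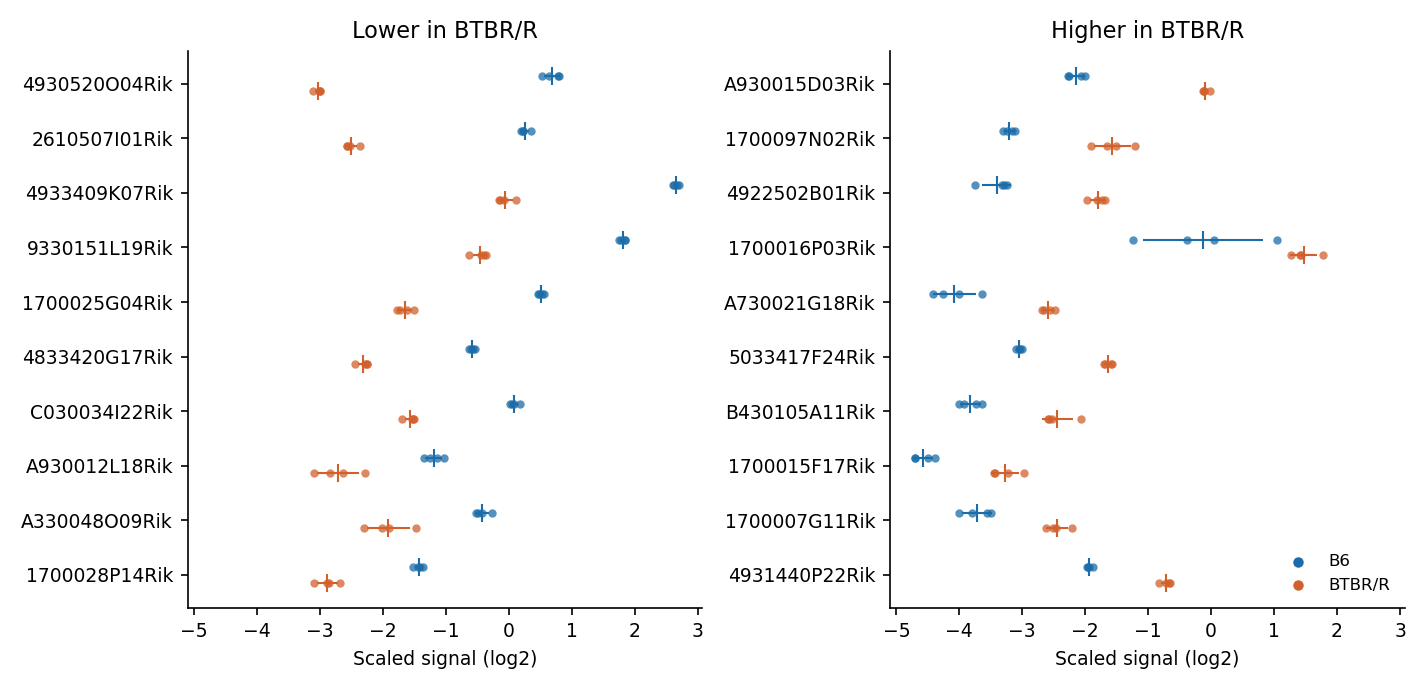
Scaled signal (log2, horizontal axis) of the 10 RIKEN genes with the largest fall (left) and the largest rise (right) among probes detected on all 8 arrays, with a point for each mouse, blue for B6 and orange for BTBR/R, and the mean ± SD as a tick and bar. 1700016P03Rik in B6 has the widest spread.

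Among the rises, 1700016P03Rik had the widest spread between mice. It is the host transcript of the microRNAs miR-212 and miR-132, which neurons are known to induce with activity through the factor CREB. Its called probe measured -1.24, 0.05, 1.04 and -0.38 in B6 and 1.43, 1.77, 1.42 and 1.26 in BTBR/R mice, so every BTBR/R mouse lay above every B6 mouse while the B6 mice were widely spread. The change was 1.60 (SE 0.44, adjusted p = 0.0245). It was no longer called without B6 replicate 4 (adjusted p = 0.0606), without BTBR/R replicate 2 (0.0617) or 3 (0.0515), or with signals raised to the highest detection limit (0.0875), while the change stayed between 1.502 and 1.62. A second probe of the same transcript rose less, by 0.43 (SE 0.09, adjusted p = 0.00844), from -2.01 ± 0.17 to -1.58 ± 0.09. Fos, an immediate early gene chosen here after its values were seen, measured -0.41, 0.26, 1.14 and -0.27 in B6 and 1.98, 2.15, 1.79 and 1.73 in BTBR/R mice. The B6 mice had the same order for 1700016P03Rik and Fos, with replicate 1 lowest and replicate 3 highest. Arc also rose (change 1.94, adjusted p = 0.0166), Egr1 changed by 0.92 (adjusted p = 0.000130), short of 2-fold and with B6 replicate 4 lowest, and Npas4 changed by 0.58 (adjusted p = 0.283). The part of neuronal activity at the time of sampling in this change was not tested.

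1500015O10Rik, now Ecrg4, encodes a secreted peptide precursor known to be abundant in the choroid plexus. It varied between mice more than between strains. It measured -0.01, -0.42, -0.83 and -2.04 in B6 and -1.80, -0.64, -0.74 and -0.86 in BTBR/R mice, the strains overlapped, and the change was -0.18 (SE 0.47, adjusted p = 0.787). Ttr, the main secreted protein of the choroid plexus, measured 5.22, 4.87, 3.66 and 0.55 in B6 and 2.13, 4.53, 4.28 and 3.93 in BTBR/R mice. B6 replicate 4 and BTBR/R replicate 1 were the lowest of their strains for both genes, and likewise for Folr1 and Kcnj13. Clic6, the other choroid plexus marker, was lowest in B6 replicate 4 too, at -0.56, but BTBR/R replicate 1 was the highest of its strain, at 0.17 (others -0.03 to 0.17). The summed signal of the 4 choroid plexus markers ranged from 1.53 to 5.36 in B6 and from 2.68 to 4.68 in BTBR/R mice.

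**Figure D4:**
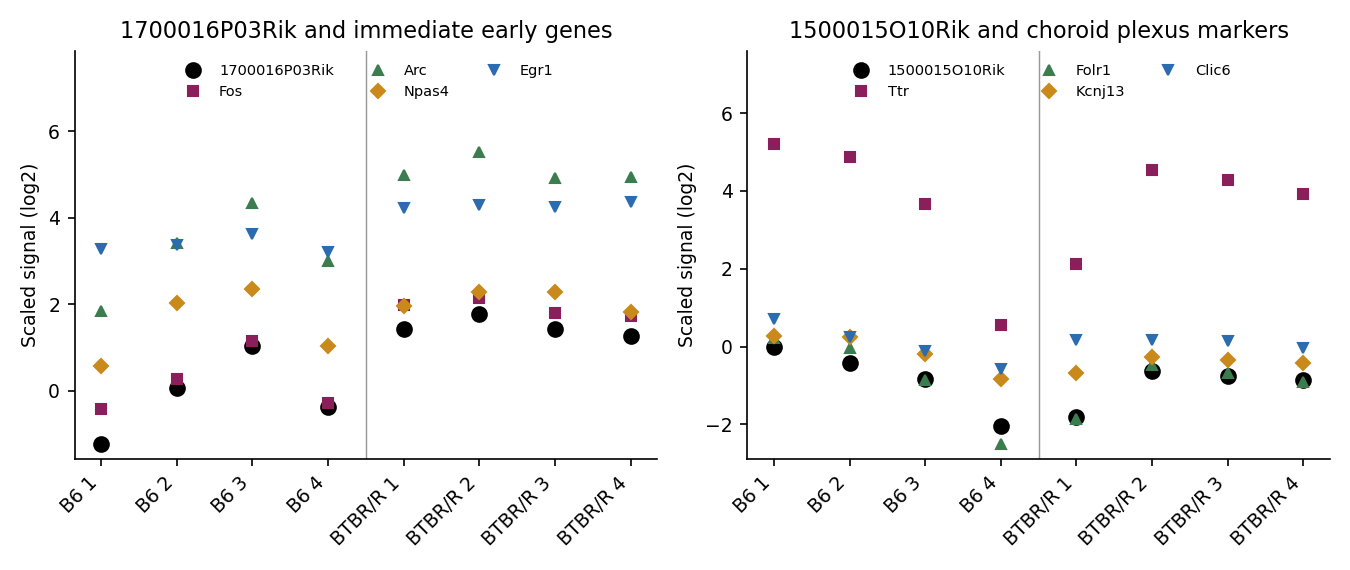
Scaled signal (log2, vertical axis) in each mouse (horizontal axis) of 1700016P03Rik beside the immediate early genes Fos, Arc, Npas4 and Egr1 (left), and of 1500015O10Rik beside the choroid plexus markers Ttr, Folr1, Kcnj13 and Clic6 (right). 1700016P03Rik runs from -1.24 in B6 replicate 1 to 1.77 in BTBR/R replicate 2, and 1500015O10Rik is lowest in B6 replicate 4, at -2.04.

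None of the members listed for a known role was called. Of the 10 symbols listed for this, 9 had a probe on the array, and the brightest probe of each was detected on all 8 arrays. C130071C03Rik, the host transcript of miR-9-2, a microRNA of neural progenitors and neurons, averaged 1.49 ± 0.11 in B6 and 1.71 ± 0.06 in BTBR/R mice (change 0.23, SE 0.07, adjusted p = 0.0318). Its other probe changed by 0.20 (adjusted p = 0.107). 1700020I14Rik, now Oip5os1 and known as Cyrano, a conserved lncRNA that triggers the decay of miR-7, averaged 1.48 ± 0.06 and 1.36 ± 0.08 (adjusted p = 0.154). 3110035E14Rik, now Vxn, which promotes neuronal differentiation, averaged 3.77 ± 0.22 and 3.85 ± 0.13 (adjusted p = 0.635). 6330403K07Rik had the clearest difference of the 9, at 5.32, 5.43, 5.30 and 5.31 in B6 and 4.63, 4.53, 4.70 and 4.61 in BTBR/R mice, a change of -0.73 (SE 0.06, adjusted p = 2.76e-05), or 1.65-fold, short of the limit. 2900011O08Rik (Bmerb1) changed by -0.17 on its brighter probe and 0.06 on the other (adjusted p = 0.345 and 0.294), and 5330417C22Rik (Elapor1) by 0.00 and 0.21 (0.999 and 0.0904). Of the 3 probes of D430041D05Rik detected on all 8 arrays, the brightest changed by 0.13 (adjusted p = 0.214) and the others by -0.54 (0.00138) and -0.29 (0.0603). All 3 probes of A730017C20Rik (Minar2) were lower in BTBR/R mice, by -0.22 on the brightest (adjusted p = 0.0236) and by -0.64 (0.00825) and -0.53 (0.0107) on the others.

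Probes of the same RIKEN gene gave different changes in some genes. The part of sequence differences between the strains under these probes was not tested. Of 187 RIKEN genes with at least 2 probes detected on all 8 arrays, the median spread between probes was 0.17 on the log2 scale. In 9 of them at least 1 probe was called, and in 1, 4833420G17Rik, every probe was. 1700025G04Rik, a protein-coding gene, had the widest spread. A probe of its RefSeq transcript spanning chr1:153740544-153762652, measured 0.56, 0.47, 0.48 and 0.53 in B6 and -1.72, -1.78, -1.62 and -1.50 in BTBR/R mice (change -2.17, SE 0.07, 4.49-fold), while the other, at chr1:153731870-153731929, averaged 1.70 ± 0.05 and 1.73 ± 0.13 (change 0.03, SE 0.07, adjusted p = 0.763). 4922502B01Rik had a called probe that rose (1.60, SE 0.12) and another that changed by -0.22 (SE 0.08, adjusted p = 0.0698), and the rise was 0.98 with the normexp correction.

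9530082P21Rik changed by 1.10 (SE 0.23) and by -0.53 (SE 0.09) on its probes, both with adjusted p below the threshold (0.00730 and 0.00257) and in opposite directions, and by -0.17 (adjusted p = 0.127) on another probe, which 3 BTBR/R arrays measured. The rise was no longer called without BTBR/R replicate 1 (0.96) or 4 (0.98), with the normexp correction (0.68) or with signals raised to the highest detection limit (0.82, adjusted p = 0.0787). 4930570G19Rik changed by -1.004 (SE 0.07), at the limit itself and not called under 6 of the alternatives, and by 0.51 (SE 0.15, adjusted p = 0.0272) on a probe for another transcript form 11.1 kb away. 2810002D19Rik changed by -1.40 (SE 0.06) on one probe and 0.00 (SE 0.16) on another, whose coordinates run on the opposite strand of the same locus. Another probe of it was detected in B6 mice alone and was at least 1.04-fold lower. 4833422C13Rik, with a probe for each of 3 transcript forms, changed by -0.48 (SE 0.08) on the form detected on all 8 arrays. The probes of the other forms, detected in all B6 mice and in none and 2 of the BTBR/R mice, were called lower, at least 2.82- and 2.85-fold.

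**Figure D5:**
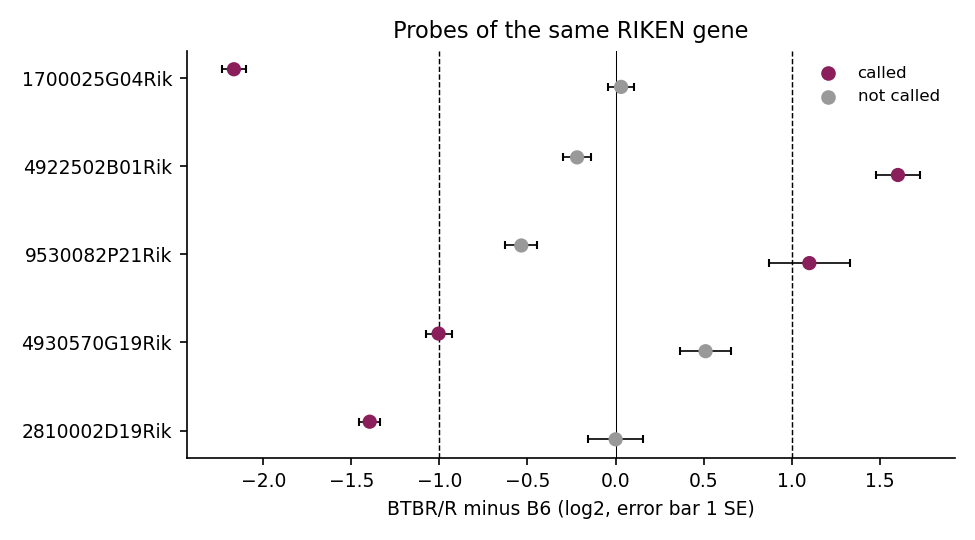
Change between the strains (BTBR/R minus B6, log2, horizontal axis) for the probes of the 5 RIKEN genes with the widest spread between probes detected on all 8 arrays, with 1 SE as error bar, purple where called and grey where not. 1700025G04Rik lies at -2.17 on one probe and 0.03 on the other.

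Some transcripts were measured in 1 strain alone. Of the 295 RIKEN probes detected in all B6 mice but in no BTBR/R mouse, 74 (25.1%) were called lower, against 20.9% of all probes in this class. As the detection limit was higher on BTBR/R arrays, each fold is a lower bound, the B6 mean over the BTBR/R mean with every BTBR/R array at its detection limit or its own signal, whichever was higher. The bound was at least 2-fold for 7 of the 74 and between 1- and 2-fold for 32, and for 35 no fold could be given. C030037D09Rik, a corpus striatum clone, measured -1.70, -1.57, -1.71 and -1.81 in B6 mice and was not well above background in any BTBR/R mouse, at least 4.03-fold lower (adjusted p = 7.67e-07). Its other probe was detected on all 8 arrays and rose, from -1.99 ± 0.13 to -1.39 ± 0.07 (change 0.61, adjusted p = 0.000483). D830031N03Rik, a protein-coding transcript, averaged -1.81 ± 0.04 in B6 mice and was at least 3.72-fold lower (adjusted p = 2.76e-05). 4833422C13Rik, 9130023H24Rik and 9030407P20Rik were at least 2.82-, 2.22- and 2.19-fold lower. The last pair fell short of 2-fold with signals raised to the highest detection limit (-0.99 and -0.97) and with the normexp correction (-0.75 and -0.92). Of the 265 RIKEN probes detected on every B6 array and 1 to 3 BTBR/R arrays, 13 (4.91%) were called lower, against 4.12% of all probes in this class. Among them, chosen after their values were seen, 6330418B08Rik averaged 0.61 ± 0.13 in B6 and -3.30 ± 0.16 in BTBR/R mice, 15.0-fold lower (adjusted p = 1.13e-06), with 3 of 4 BTBR/R arrays measuring it. Its lower bound equals this fold, as its signal on the remaining array, though not well above background, lay above the lowest detected signal there. C230062I16Rik averaged 0.08 ± 0.09 in B6 mice and was at least 10.2-fold lower, with 1 of 4 BTBR/R arrays measuring it (adjusted p = 0.00152).

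The reverse pattern was held by 2 RIKEN probes, detected on every BTBR/R and no B6 array, and by 24 of all probes. Both RIKEN probes were called higher, as were 100% of all probes in this class. E130116L18Rik, an eyeball clone, measured -1.61, -1.75, -1.92 and -1.78 in BTBR/R mice and was at least 10.5-fold higher than in B6 (adjusted p = 2.51e-05), although the detection limit was higher in BTBR/R. A530053M12Rik, from a clone of aorta and vein, measured -3.37, -1.52, -2.52 and -2.07 in BTBR/R mice, at least 6.87-fold higher (adjusted p = 0.000118). With all signals raised to the highest detection limit it was no longer called (change 1.18, adjusted p = 0.116).

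Over all RIKEN probes, dim ones included, 1270 (31.2%) passed the test as higher in BTBR/R mice and 123 (3.02%) as lower, against 20.2% and 2.27% of all probes. Of the 1270, 1145 were detected on no array. Their class held 1619 RIKEN probes, so 70.7% of it was called higher, near the 67.7% of all probes detected on no array. Of the 242 probes detected on 1 to 3 BTBR/R arrays and no B6 array 102 (42.1%) were called higher, near the 43% of all probes in this class. The median scaled signal of the probes detected on no array was -7.31 to -7.05 on B6 arrays and -6.05 to -5.67 on BTBR/R arrays. None of the latter was called higher with the normexp correction or with signals raised to the highest detection limit, and 7 were with quantile normalization. The count of RIKEN probes called higher was 11, 13 and 35 under these settings, so the total of 1270 is no count of transcripts that rose.

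Some called RIKEN probes had a called probe of another gene name nearby. Of the 44 called probes detected on all 8 arrays, 12 (27.3%) had a called probe of another gene name within 100 kb. That probe too had to be detected on all 8 arrays. Of the 1244 uncalled ones 100 (8.04%) had such a probe. The share for called probes of the whole array was not counted. In 8 of the 12 the nearest one changed the same way. The 12 hold 1700097N02Rik and 0710001D07Rik, each the nearest of the other, which moved in opposite directions. 6330562C20Rik and Anxa9, an annexin gene, lay 11.3 kb apart and changed by 1.02 and 1.09. 2610035D17Rik changed by -1.18, and a probe 12.0 kb away by -1.19. The latter is named for an interval that spans the 2610035D17Rik probe too. Whether both probes measure the same transcript was not tested. A330048O09Rik and 1190007I07Rik fell with unnamed transcripts 7.52 and 29.9 kb away, which changed by -1.17 and -1.05. With the normexp correction 6330562C20Rik changed by 0.74 and 2610035D17Rik by -0.92, both short of 2-fold, and 6330562C20Rik, at the limit, also fell short under 5 other alternatives.

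Many members have since been renamed. Of the 4075 probes, 3094 matched the reference table of mouse genes, 2091 of them through their accession, and 487, for 288 genes, now have a symbol that no longer ends in Rik. Of the matched probes 1034 belong to protein-coding genes and 1986 to lncRNAs.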

How the data were processed

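RNA of 8 mice was labelled with Cy3 and hybridized to Agilent mouse arrays, 1 array a mouse. The authors deposited spot intensities from Agilent Feature Extraction 10.7.3.1, in which the processed signal is background subtracted, and log2 values made with GeneSpring, which per the file headers carry no unit. The deposited log2 values differed from the log2 processed signal by a constant per array, to within 0.01 for 99.97% to 99.99% of the probes. Here control spots and 36 to 52 outlying spots per array were left out, spots of a probe were averaged, and log2 processed signals, each array's 75th percentile set to 0, were compared between strains with limma 3.58.1 (lmFit, eBayes) in R 4.3.3, using Python 3.11.15, numpy 2.4.6, pandas 2.3.3 and matplotlib 3.10.9 for other steps. On simulated data for BTBR/R against B6 over 56605 probes the fit called 166 of 200 probes changed by 2 on the log2 scale and 7 unchanged ones. The number of arrays, 4 a strain, limits the precision.

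The library of a clone was read from the first 4 characters of its symbol through the probe descriptions, which placed 4057 of 4075 members. Positions are mm9 from the array annotation. Coordinate order matched the RefSeq strand for 99.8% of 1663 probes. Current symbols are from RefSeq (GRCm38.p6). Named genes were the 10 largest rises and 10 largest falls, up to 5 in each direction measured in 1 strain alone, the 5 brightest, 5 with differing probes, 5 with the nearest called neighbours, and a list of known roles. Some marker genes of the neuron lists are not reported here. The members and lists were chosen with earlier results of these data known. Alternatives were normexp (offset 50), quantile normalization, scaling by the array median, detected probes or 7 spike-in probes, the authors' values, a detection filter, a detection floor, limma with trend and robust, the methods' t-test, a replicate block and leaving out each array.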

Additional observations from a re-analysis of the deposited data

Results flagged for a closer look

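In 9 of 104 strain groups of 4 mice checked for the named probes, 1 mouse lay far from the other 3 by Dixon's criterion, where chance gives about 1 in 20. Among called probes, 4922502B01Rik was lowest in B6 replicate 3 (-3.75, others -3.33 to -3.25), B430105A11Rik was highest in BTBR/R replicate 4 (-2.07, others -2.59 to -2.53) and 4930520O04Rik was lowest in BTBR/R replicate 3 (-3.11, others -3.01 to -3.00). D830031N03Rik was highest in BTBR/R replicate 1 (-4.80, others -5.92 to -5.74), below the detection limit of that array. The uncalled probe of 4930570G19Rik was highest in BTBR/R replicate 1 (-1.95, others -2.59 to -2.53), the mouse 6 months old. Among the other uncalled probes, 2900011O08Rik was lowest in BTBR/R replicate 2 (3.63, others 4.15 to 4.19) and D430041D05Rik was lowest in B6 replicate 1 (3.87, others 4.10 to 4.14). 3000002C10Rik was highest in B6 replicate 4 (6.71, others 6.63 to 6.64) and 6330403K07Rik was highest in B6 replicate 2 (5.43, others 5.30 to 5.32). These last gaps are small beside the signal.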

How the results depend on the processing

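The RIKEN probes called higher in BTBR/R mice numbered 1270, and 11 with normexp, 13 with the detection floor, 21 with the filter on detection in a strain and 35 with quantile normalization. Those called lower numbered 123, and 21 with normexp and 40 with the floor. Among probes detected on all 8 arrays, normexp left 3 of 16 called higher and 13 of 28 called lower, and all 16 of these were among the 44 called. The other settings that keep all arrays gave 40 to 45 such calls, 40 to 44 of them shared with the 44. Of 52 named probes 33 were called, and 18 with normexp. The cause of these moves was not tested, except that the filter left fewer probes to test. Spike-in scaling moved the median change of all probes from 0.07 to 0.19. Leaving out 1 array gave 1162 to 1283 called higher and 120 to 138 lower, 12 to 16 and 26 to 32 among probes detected on all 8 arrays, and 30 to 33 named probes called. Over 627 values of the 33 called probes under the alternatives, 590 kept the call, 37 lost it and none changed direction, and no uncalled named probe gained a call.

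Replicate numbers did not pair the mice (correlations of same-numbered mice 0.003, -0.07, -0.04 and 0.16). With the replicate block 1170 were called higher and 113 lower, and 16 and 28 among probes detected on all 8 arrays.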

Other observations

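Among germ cell genes, Prm1 was detected on every BTBR/R and no B6 array, and Tnp1 was detected on every B6 and no BTBR/R array. RIKEN symbols whose probes lie far apart, besides 4930520O04Rik, were C330021F23Rik (23.0 Mb), 4930503E14Rik (7.24 Mb), 2900009J06Rik (1.63 Mb) and 1700007L15Rik, on different chromosomes.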
